A study of Mus musculus with 20 samples.

Results

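Genes of ribosome biogenesis and of the nucleolus were followed in epididymal fat, a visceral depot, after 2, 4, 6 or 14 days of high-fat diet and on normal chow (day 0). The mice were male and of the inbred strain C57BL6/J, and the labels give no age. The 34 genes were taken by name, for the step of ribosome assembly that their products are known for. Earlier results of these data were known when the genes were chosen. Each had a row among the 39179 genes counted. All 34 also passed the filter on low counts, which left 15254 genes for testing. They comprised 5 genes of RNA polymerase I and ribosomal DNA transcription, 3 of abundant nucleolar proteins, 3 of the box C/D particles, 5 of the box H/ACA particles and their chaperone, 10 of small subunit assembly and 8 of large subunit assembly.

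RNA of the whole fat pad was sequenced from 4 libraries per group, 20 in all. Chow was the only diet of the day 0 mice, and the labels name no genotype, transgene or drug in any group. The labels number the libraries as replicates without naming the animals, so the p-values below measure the spread between libraries of a day. In such bulk tissue fewer cells of a type and less RNA per cell cannot be told apart.

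Ribosomes are built in the nucleolus, where RNA polymerase I copies the ribosomal DNA into a long precursor RNA. Small nucleolar ribonucleoproteins (snoRNPs) modify that precursor, those of the box C/D kind by methylating its riboses and those of the box H/ACA kind by turning uridines into pseudouridines. Large assemblies of proteins then fold, cut and export the precursors of the small and the large ribosomal subunit. Growing and dividing cells are known for high output of this pathway, and the transcription factor MYC is its best known activator.

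Library totals ran from 1916829 to 38832429 counts, and the 34 genes together held 0.124% to 0.189% of them. The shallowest library, day 2 replicate 1, still had at least 11 reads of every member. Epididymal epithelium markers summed to 0.191 to 0.888 CPM in the day 4 libraries, where 8 of the 10 genes had 0 reads (Cuzd1, Lcn5, Defb42, Adam28, Crisp1, Spint4, Wfdc10 and Fermt1), against 0.329 to 113 CPM in the day 0 libraries, the highest being day 0 replicate 4. Adipocyte markers, all 12 of them measured, summed to 21891 to 34078 CPM in the day 4 libraries, against 24231 to 43733 CPM in the day 0 libraries. CPM are read counts scaled to library totals adjusted by TMM, and a gene is called where the edgeR quasi-likelihood test gave an adjusted p under 0.05 (Benjamini-Hochberg, over all 15254 genes).

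After 4 days of high-fat diet, 20 of the 34 genes were called higher than on chow and 1, Dkc1, was called lower. Of all genes tested 18% were called higher and 17.3% lower in the same comparison, 35.3% in all. The members' median log2 change was 0.35, beside -0.02 for all genes tested, and 31 of 34 changes were positive, beside 48.3% of all genes. Every day 4 library lay above every day 0 library for 19 members (15.2% of all genes) and below for 1 member (15% of all genes). The count of 21 was 13 without day 4 replicate 4, the library with the highest level of 23 members on that day, and 14 with scaling by library size only. It was 16 without day 0 replicate 4 and day 2 replicate 1 together, a pair chosen after seeing the data.

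**Figure D1:**
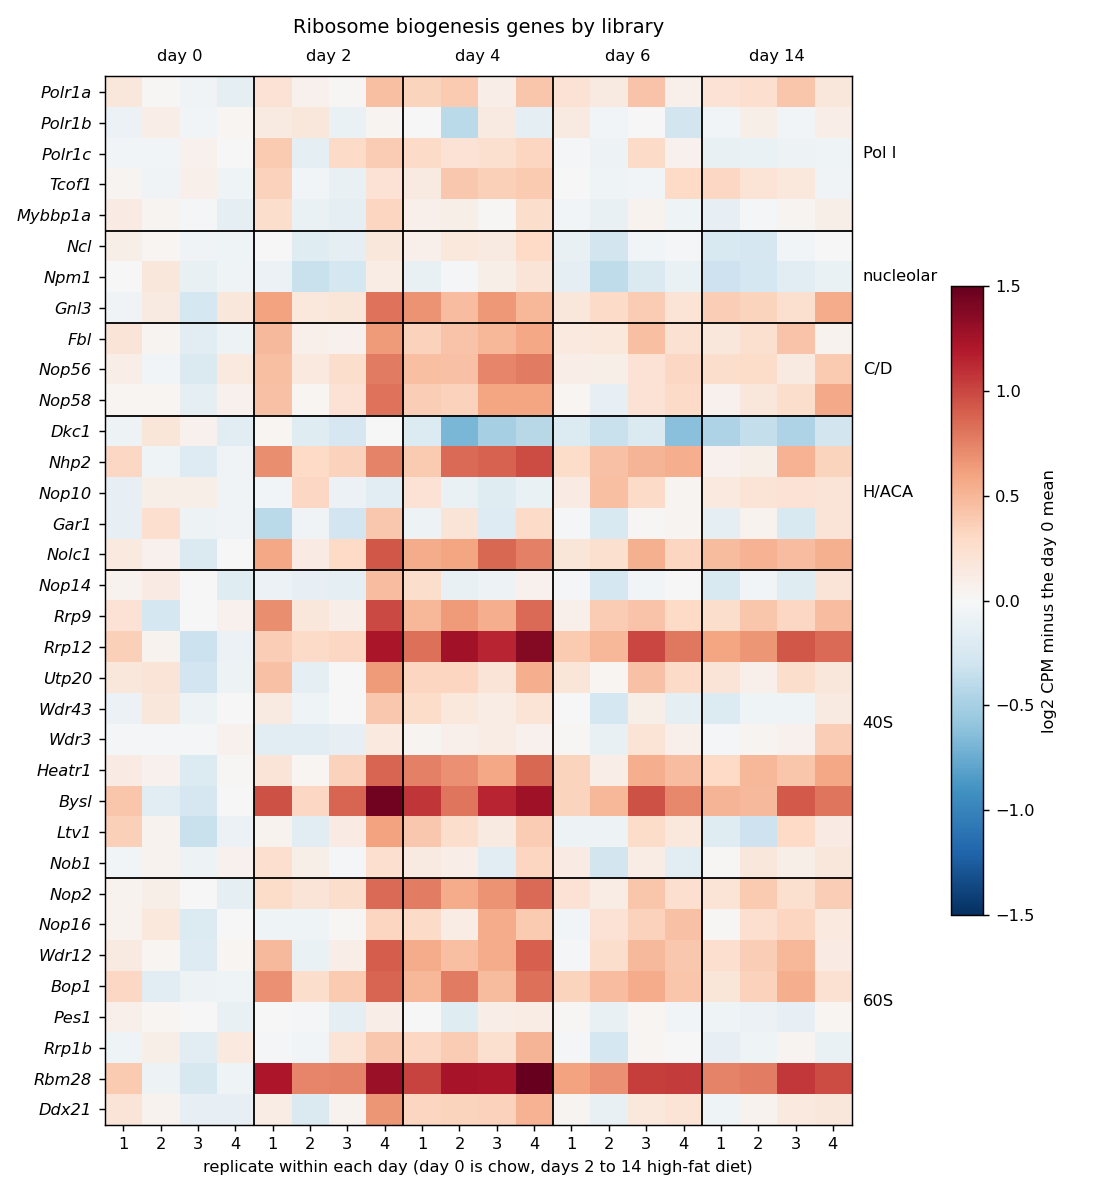
Log2 CPM of each of the 34 genes (rows, grouped by the step of assembly) in each of the 20 libraries (columns, by day of high-fat diet and replicate), minus the gene's mean over the 4 day 0 libraries. The day 4 block and the column of day 2 replicate 4 are the reddest, and Dkc1 is the member that is blue in all 4 day 4 libraries and was called lower.

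Rbm28, whose yeast counterpart is needed for large subunit assembly, had the largest change of all members. It measured 166, 194, 192 and 235 CPM in the day 4 libraries, against 108, 78.0, 69.5 and 78.6 CPM in the day 0 libraries. The lowest day 4 library stood well above the highest chow library. The log2 change was 1.24 ± 0.16 (SE, n = 4 libraries per group; edgeR quasi-likelihood test, adjusted p = 6.54e-04). Rbm28 was the only member called higher than chow on each of days 2, 4, 6 and 14. It averaged 167 ± 34.3 CPM on day 2, 149 ± 24.3 CPM on day 6 and 153 ± 16.4 CPM on day 14, against 83.5 ± 16.8 CPM on day 0 (SD, n = 4 each). On every high-fat day all 4 libraries exceeded all 4 chow libraries.

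Large subunit assembly had the most members called on day 4. Of its 8 members 7 were higher (18% of all genes) and 0 lower (17.3%), with a median log2 change of 0.51. Nop2, a methyltransferase of the large subunit RNA, measured 34.8, 30.05, 32.6 and 36.8 CPM in the day 4 libraries, against 21.2, 21.7, 20.5 and 18.7 CPM in the day 0 libraries. The groups did not overlap, and the change was 0.72 ± 0.12 (log2, SE; edgeR quasi-likelihood test, adjusted p = 0.00104). Bop1 and Wdr12 encode partners of Pes1 in the PeBoW complex, which processes the large subunit RNA. Bop1 measured 46.4, 56.7, 45.9 and 58.5 CPM in the day 4 libraries, against 40.9, 29.2, 31.3 and 31.5 CPM in the day 0 libraries (0.64 ± 0.13; adjusted p = 0.00227). Wdr12 measured 19.3, 17.9, 19.3 and 24.4 CPM in the day 4 libraries, against 14.4, 13.4, 11.5 and 13.3 CPM in the day 0 libraries (0.63 ± 0.18; adjusted p = 0.0108). Both rose, with no overlap between the groups. Pes1 itself measured 50.3, 44.5, 54.4 and 54.5 CPM in the day 4 libraries, against 53.4, 51.5, 50.6 and 47.0 CPM in the day 0 libraries. Its groups overlapped throughout and its change was 0.01 ± 0.07 (adjusted p = 0.923). The DEAD-box helicase gene Ddx21 (0.38 ± 0.14), Rrp1b (0.37 ± 0.11) and Nop16 (0.35 ± 0.13) rose as well, by less. Without day 4 replicate 4 the calls of Wdr12, Rrp1b, Ddx21 and Nop16 were lost. That of Rrp1b was also lost without day 0 replicate 3, that of Nop16 without day 0 replicate 1, 3 or 4 or day 4 replicate 3, and that of Ddx21 without day 0 replicate 2, 3 or 4 or day 4 replicate 2 or 3. Their highest adjusted p in these fits was 0.0634 for Wdr12, 0.0837 for Rrp1b, 0.129 for Nop16 and 0.134 for Ddx21.

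Of the 10 members of small subunit assembly 4 were called higher on day 4 (18% of all genes) and 0 lower (17.3%). Their median log2 change was 0.32. Rrp12, which in yeast serves the export of pre-ribosomal subunits, measured 18.4, 25.01, 23.1 and 27.1 CPM in the day 4 libraries, against 13.3, 10.8, 8.33 and 9.85 CPM in the day 0 libraries. The groups did not overlap, and the log2 change was 1.15 ± 0.20 (adjusted p = 0.00123). Bysl, which encodes bystin, a factor of small subunit maturation, measured 31.1, 25.6, 32.6 and 35.7 CPM in the day 4 libraries, against 19.7, 13.1, 12.4 and 14.7 CPM in the day 0 libraries (1.07 ± 0.20; adjusted p = 0.00156). The lowest day 4 library was above the highest chow library for Bysl too. In the GENCODE M21 annotation Bysl overlaps Ccnd3 on the opposite strand over 361 bases. The strand setting of the counts was not stated, so reads of that stretch could belong to either gene. The same limit holds for other members, among them Wdr3 (820 bases with Spag17), Polr1a (185 with Gm26628) and Heatr1 (155 with Lgals8). Heatr1, of the small subunit processome (0.73 ± 0.14), and Rrp9, a protein of the U3 particle that starts small subunit processing (0.63 ± 0.16), completed the 4. The other 6 were Utp20 (0.35 ± 0.15), Ltv1 (0.29 ± 0.17), Wdr43 (0.19 ± 0.10), Nob1 (0.13 ± 0.11), Wdr3 (0.07 ± 0.10) and Nop14 (0.05 ± 0.13). Utp20 came closest to a call, with no overlap between its groups and an adjusted p of 0.0701. Nob1 encodes the nuclease of the last cut of the small subunit RNA.

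All 3 members of the box C/D particle were called higher on day 4, where 18% of all genes were higher and 17.3% lower. Their median log2 change was 0.48. Nop56, a core scaffold protein, measured 39.996, 39.7, 48.4 and 50.02 CPM in the day 4 libraries, against 31.3, 28.4, 25.2 and 32.4 CPM in the day 0 libraries (0.60 ± 0.12; adjusted p = 0.00209). Its partner Nop58 averaged 32.2 ± 3.06 CPM on day 4 and 23.1 ± 1.38 CPM on day 0 (0.48 ± 0.15; adjusted p = 0.0166). The methyltransferase gene Fbl (fibrillarin) averaged 24.5 ± 1.66 CPM on day 4 and 17.8 ± 1.90 CPM on day 0 (0.46 ± 0.13; adjusted p = 0.0102). None of the 3 had overlapping groups. Nop58 lost its call without day 4 replicate 4 (adjusted p = 0.0663).

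The 4 core proteins of the box H/ACA particle did not move alike. Dkc1, the pseudouridine synthase dyskerin, measured 31.5, 22.7, 25.7 and 27.2 CPM in the day 4 libraries, against 34.4, 41.4, 38.2 and 32.3 CPM in the day 0 libraries. All day 4 libraries lay below all chow libraries, and the log2 change was -0.43 ± 0.11 (edgeR quasi-likelihood test, adjusted p = 0.00739). Nhp2 measured 23.2, 31.7, 32.6 and 34.8 CPM in the day 4 libraries, against 21.9, 16.9, 15.4 and 17.04 CPM in the day 0 libraries (0.78 ± 0.15; adjusted p = 0.00150). For Nhp2 the day 4 libraries were all higher, with day 4 replicate 1 nearest to chow. Nop10 (-0.02 ± 0.11) and Gar1 (0.08 ± 0.16) were not called. Nolc1, the chaperone of both kinds of snoRNP, measured 48.3, 49.6, 59.9 and 55.8 CPM in the day 4 libraries, against 36.4, 34.5, 28.3 and 33.1 CPM in the day 0 libraries (0.69 ± 0.14; adjusted p = 0.00175). The calls of Dkc1, Nhp2 and Nolc1 held in each of the 8 fits without 1 day 4 or day 0 library.

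Of the genes grouped under abundant nucleolar proteins only Gnl3 was called on day 4, where 35.3% of all genes were called. Ncl and Npm1, with far higher CPM than Gnl3, were not called. Ncl (nucleolin) measured 253, 268, 264 and 297 CPM in the day 4 libraries, against 256, 246, 233 and 229 CPM in the day 0 libraries (0.17 ± 0.09; adjusted p = 0.161). Npm1 (nucleophosmin) measured 133, 143, 154 and 165 CPM in the day 4 libraries, against 144, 162, 134 and 138 CPM in the day 0 libraries (0.04 ± 0.10; adjusted p = 0.777). The groups of both genes overlapped, and reads of Npm1 could be split with its pseudogene copies. Gnl3 (nucleostemin), known from stem and dividing cells, measured 36.4, 31.5, 35.7 and 32.1 CPM in the day 4 libraries, against 21.99, 25.1, 19.03 and 25.7 CPM in the day 0 libraries. It rose without overlap (0.57 ± 0.13; adjusted p = 0.00400).

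Of the 5 genes of ribosomal DNA transcription 3 were called higher, each by a small margin. Of all genes 18% were called higher and 17.3% lower. Polr1a, the largest subunit of polymerase I, averaged 49.8 ± 4.81 CPM on day 4 and 40.2 ± 3.72 CPM on day 0 (0.32 ± 0.11; adjusted p = 0.0264), with overlapping groups. Polr1c, a subunit shared with polymerase III, averaged 25.7 ± 0.881 CPM on day 4 and 21.4 ± 0.766 CPM on day 0 (0.27 ± 0.10; adjusted p = 0.0478). Tcof1 (treacle), a nucleolar factor of ribosomal DNA transcription, averaged 36.2 ± 3.08 CPM on day 4 and 28.9 ± 1.39 CPM on day 0 (0.32 ± 0.11; adjusted p = 0.0286). Polr1c lost its call in all 8 fits without 1 day 4 or day 0 library (adjusted p up to 0.145). Polr1a lost it without day 0 replicate 2, 3 or 4 or day 4 replicate 2 or 4 (up to 0.104), and Tcof1 without day 0 replicate 2 or 4 or day 4 replicate 2, 3 or 4 (up to 0.0878). The catalytic partner Polr1b (-0.08 ± 0.11; adjusted p = 0.576) and the nucleolar Myb-binding protein gene Mybbp1a (0.12 ± 0.10; adjusted p = 0.369) were not called.

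**Figure D2:**
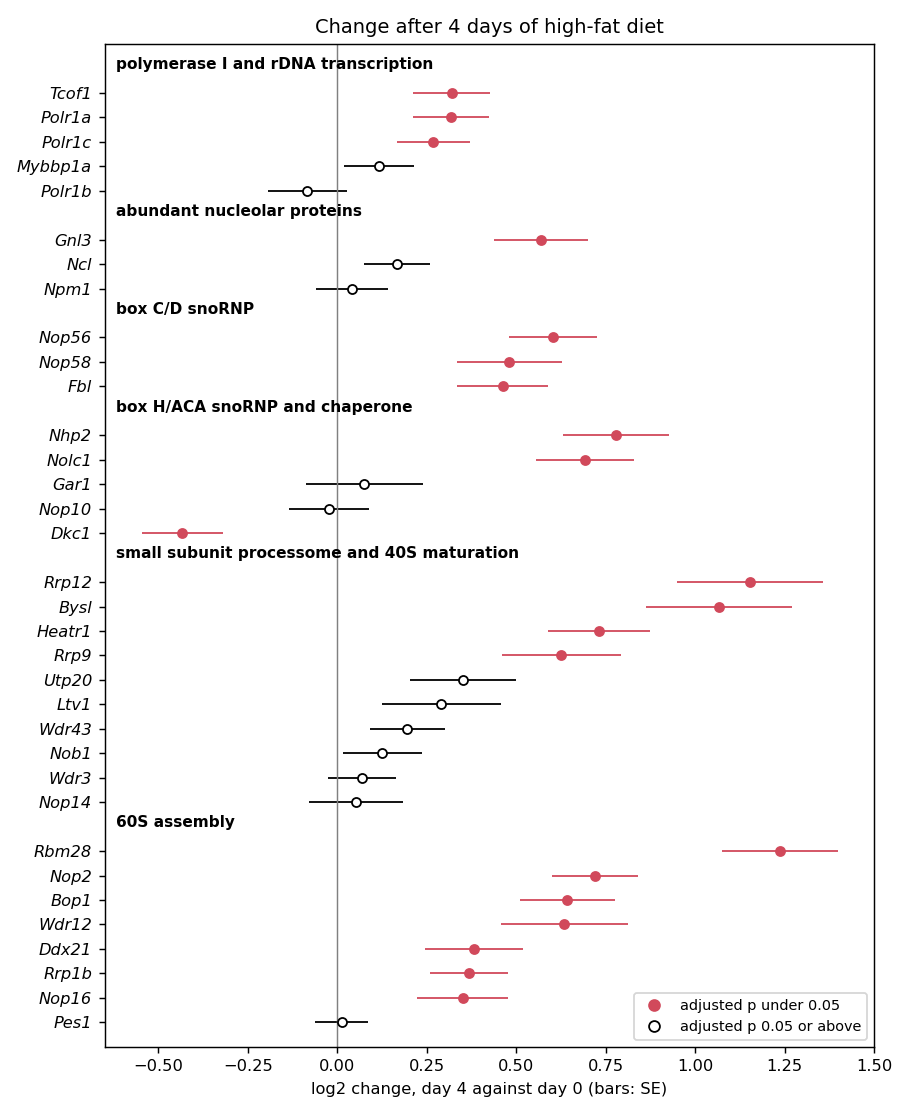
Log2 change of each of the 34 genes on day 4 against day 0 (points, with bars for the SE), grouped by the step of assembly; filled points passed the edgeR test at an adjusted p under 0.05. Rbm28, Rrp12 and Bysl lie furthest to the right, above 1, and Dkc1 is the filled point left of 0.

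Levels of different genes were compared per kilobase of annotated exon (GENCODE M21), as CPM per kb. The length joins all annotated exons of a gene: 2.665 kb for Npm1, 10.188 kb for Ncl and 11.955 kb for Wdr12. A gene whose transcripts use only part of its annotated exons gets too low a value. The order below therefore depends on the annotation. On day 0 Npm1 led with 54.3 ± 4.57 CPM per kb, followed by Nop10 with 30.7 ± 2.24 and Ncl with 23.7 ± 1.19 CPM per kb, and Wdr12 came last with 1.10 ± 0.1003 CPM per kb (SD, n = 4). Rbm28 had 34.7 ± 5.00 CPM per kb on day 4 and 14.7 ± 2.96 CPM per kb on day 0, which placed it 2nd of the 34 on day 4 and 8th on day 0. On day 0 its level did not differ beyond the spread from those of its neighbours in the order, Nhp2 with 15.5 ± 2.45 and Ddx21 with 13.1 ± 1.45 CPM per kb. Dkc1 was 20th on day 4 and 13th on day 0, and Bysl was 17th on day 4 and 24th on day 0. Of the 34 genes 6 hold annotated snoRNA genes within their bounds: Nop56 (5), Nop58 (4), Ncl (3), Gnl3 (3), Wdr43 (3) and Dkc1 (1). These 6 included 3 that rose on day 4 (18% of all genes), 1 that fell (17.3%) and 2 that were not called.

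Promoter sequence was set beside these changes because MYC and its partner MAX bind the E-box CACGTG. RefSeq windows (GRCm38.p6, 250 bases before to 50 after the start) were matched by symbol for 29 of the 34 genes. The letters CACGTG, which read the same on both strands, stood in 6 of the 29 windows (20.7%), beside 2187 of 27025 symbols in the whole table (8.09%). That table is wider than the 15254 genes tested here, so its share is not that of the tested genes. Of the 16 called-higher members with a window 1 held the motif, Nop2, as did 5 of the 13 others. The median GC content of the 250 upstream bases was 57.2% for the members and 52.4% for all symbols. A match here is a description of letters and not a binding site. For Nop2 a stretch just after the RefSeq start was found in no GENCODE M21 transcript of the gene. The same held for Mybbp1a, Ncl, Nop56, Nolc1 and Ddx21. GENCODE M21 starts Nop2 at chr6:125131909, downstream of the RefSeq start used here. The 150 bases before the start are shown 5′ to 3′ on the gene's own strand for Nop2, which rose and holds the motif (capitals), for Bysl, which rose by more and holds none in its window, and for Dkc1, which fell and holds none. They lie at chr6:125131733-125131882 (plus strand), chr17:47611493-47611642 (minus strand) and chrX:75095704-75095853 (plus strand).
Nop2: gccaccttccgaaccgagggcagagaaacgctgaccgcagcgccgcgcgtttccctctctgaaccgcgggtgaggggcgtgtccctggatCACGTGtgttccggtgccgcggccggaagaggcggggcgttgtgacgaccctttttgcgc
Bysl: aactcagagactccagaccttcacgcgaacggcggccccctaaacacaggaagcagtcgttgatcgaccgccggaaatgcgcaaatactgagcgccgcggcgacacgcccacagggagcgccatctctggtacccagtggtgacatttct
Dkc1: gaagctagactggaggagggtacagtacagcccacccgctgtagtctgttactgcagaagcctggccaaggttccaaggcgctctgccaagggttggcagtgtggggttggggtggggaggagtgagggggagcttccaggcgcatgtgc

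The other 5 motifs stood just after the start, and none of these 5 genes was called on day 4. They are shown with up to 10 bases on each side (capitals mark the motif) because the flanks differ between them. The stretches are chr11:3963967-3963992 (plus strand, Pes1), chr17:71616222-71616247 (plus strand, Wdr43), chr10:13193094-13193119 (minus strand, Ltv1), chr10:88826765-88826787 (minus strand, Utp20) and chr11:72441357-72441376 (plus strand, Mybbp1a).
Pes1: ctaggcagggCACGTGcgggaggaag
Wdr43: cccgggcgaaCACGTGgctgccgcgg
Ltv1: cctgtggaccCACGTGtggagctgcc
Utp20: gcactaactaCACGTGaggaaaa
Mybbp1a: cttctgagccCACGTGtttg

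After 2 days 4 of the 34 genes were called higher and 0 lower, where 2.43% of all genes were called higher and 1.96% lower, 4.39% in all. The median change was 0.19, beside -0.03 for all genes, and 28 of 34 changes were positive (45.7% of all genes). Rbm28 measured 190, 137, 138 and 202 CPM in the day 2 libraries (0.99 ± 0.16 against day 0; edgeR quasi-likelihood test, adjusted p = 0.00578). Bysl measured 28.6, 18.3, 26.9 and 40.2 CPM (0.91 ± 0.21; adjusted p = 0.0233). Bop1 (0.55 ± 0.13; adjusted p = 0.0312) and Nolc1 (0.50 ± 0.14; adjusted p = 0.0450) were the other 2. Only Rbm28 of these had all day 2 libraries above all day 0 libraries, and 2 members in all did (5.47% of all genes), the other being Nop2, which was not called (0.42 ± 0.12; adjusted p = 0.0520). In 0 members every day 2 library lay below (7.26% of all genes). The day 2 values were uneven: day 2 replicate 4 had the highest level of the day for 28 of 34 members and day 2 replicate 2 the lowest for 20. Rrp12 measured 24.3 CPM in day 2 replicate 4 and 12.7 to 13.5 CPM in the other 3 libraries of that day.

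The count of 4 on day 2 depended on single libraries. It was 1 without day 0 replicate 2, 3 or 4 and without day 2 replicate 1 or 4, 8 without day 0 replicate 1 and 13 without day 2 replicate 2. Without day 0 replicate 4 and day 2 replicate 1 together, or day 0 replicate 4 and day 2 replicate 4 together, it was 0. These pairs were chosen after seeing the data.

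The edgeR test did not tell day 4 and day 2 apart for any member. The test called 0 of 34, where 2.4% of all genes were called, 2.14% higher and 0.256% lower. An unadjusted p under 0.05 was found for 7 members and 22.3% of all genes, and DESeq2 also called 0 members. Limma-voom with quality weights did call members in this comparison, as counted by setting further below. The change was positive for 29 members (48.9% of all genes), with a median of 0.14, and 0 members had groups that did not overlap (4.07% of all genes higher and 3.16% lower). It was largest for Rrp12, with 0.55 ± 0.21 (adjusted p = 0.134). The lowest adjusted p was that of Dkc1, 0.126, with 26.8 ± 3.68 CPM on day 4 and 34.05 ± 3.19 CPM on day 2. The count was 4 without day 2 replicate 4.

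**Figure D3:**
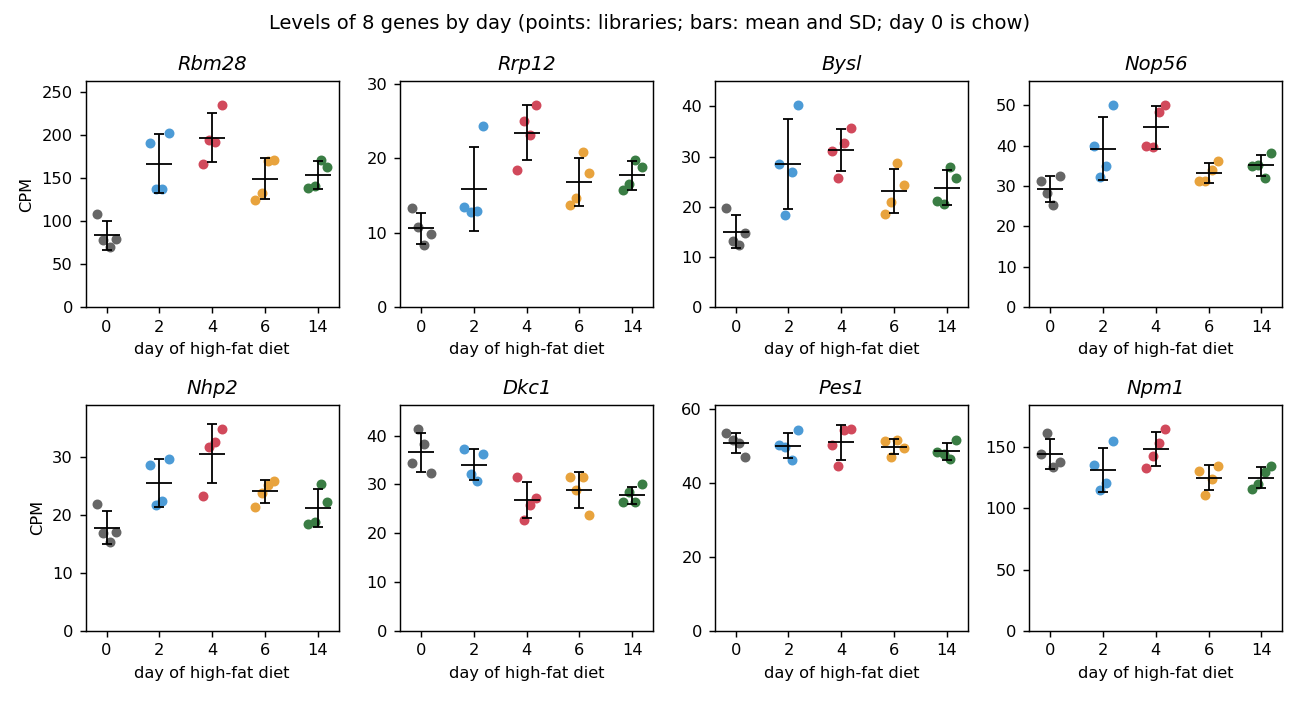
CPM of 8 of the 34 genes in each library (points) by day of high-fat diet, with the mean and SD of each day's 4 libraries; day 0 is chow and each vertical axis starts at 0. Rbm28, Rrp12, Bysl, Nop56 and Nhp2 have their highest mean on day 4 and Dkc1 its lowest, while Pes1 stays between 44.5 and 54.5 CPM in every library and Npm1 overlaps between days.

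Over the whole time course day 4 had the highest mean of the 5 groups for 28 of 34 members, and day 0 had the lowest mean for 19. Among the exceptions Nop10 was highest on day 6 (39.9 ± 5.10 CPM), Wdr3 on day 14 and Dkc1 on day 0. The test of any difference among the 5 groups called 12 members, where 19.6% of all genes were called: Gnl3, Nop56, Dkc1, Nhp2, Nolc1, Rrp12, Heatr1, Bysl, Nop2, Bop1, Rrp1b and Rbm28. That count was 4 without day 4 replicate 4, 8 without day 0 replicate 2 or 3, and 3 without day 0 replicate 4 and day 2 replicate 1 together.

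On day 6 Rbm28 was the only member called against chow, higher by 0.84 ± 0.16 (edgeR quasi-likelihood test, adjusted p = 0.0244), where 1.99% of all genes were called higher 1.46% lower and 3.45% in either direction. It measured 125, 133, 170 and 171 CPM in the day 6 libraries. The call was lost without day 0 replicate 4, day 6 replicate 3 or day 6 replicate 4; the count was 5 without day 0 replicate 1 and 3 without day 6 replicate 1, and DESeq2 called 4 members. Dkc1 measured 31.6, 28.9, 31.4 and 23.7 CPM on day 6, all below the chow libraries, without a call (-0.34 ± 0.11; adjusted p = 0.0779). In all, 5 members had every day 6 library above every chow library (6.2% of all genes) and 1 had every one below (5.74%), and 23 changes were positive (48.8% of all genes).

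Day 6 against day 4 gave no call for any gene tested (0%). For the members the changes were negative for 31 of 34, while 50.4% of all genes changed upward. Their median was -0.26, beside 0.00 for all genes. In 11 members all day 6 libraries lay below all day 4 libraries (3.07% of all genes) and in 0 all lay above (3.6%). Nop2 averaged 24.4 ± 2.13 CPM on day 6 and 33.6 ± 2.90 CPM on day 4 (-0.47 ± 0.12; adjusted p = 0.240), and its groups did not overlap. An unadjusted p under 0.05 was found for 18 of the 34 members, beside 16.3% of all genes, and DESeq2 called 0 members and 1 gene. Limma-voom with quality weights did call members here too, as counted by setting further below. The count was 2 without day 4 replicate 1 and 8 without day 4 replicate 1 and day 6 replicate 4 together, a pair chosen after seeing the data.

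By day 14 several members lay below their day 4 level. Against day 4, 5 were called lower and 0 higher, where 4.78% of all genes were called lower, 4.58% higher and 9.36% in either direction. Changes were positive for 4 of 34 (50.3% of all genes). The 5 called lower were Rrp1b (-0.43 ± 0.11; adjusted p = 0.0296), Nhp2 (-0.53 ± 0.15; adjusted p = 0.0370), Polr1c (-0.36 ± 0.10; adjusted p = 0.0390), Nop2 (-0.42 ± 0.12; adjusted p = 0.0398) and Ncl (-0.30 ± 0.09; adjusted p = 0.0489). Polr1c measured 19.7, 19.9, 20.3 and 20.5 CPM in the day 14 libraries, against 26.1, 24.8, 25.3 and 26.8 CPM in the day 4 libraries. Ncl measured 205, 203, 234 and 240 CPM in the day 14 libraries, against 253, 268, 264 and 297 CPM in the day 4 libraries. Neither gene's groups overlapped, and 9 members in all had every day 14 library below every day 4 library (6.36% of all genes) and 0 had every one above (7.91%). The count of 5 was 0 without day 4 replicate 2, 3 or 4 and without day 14 replicate 1, 2 or 4.

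Against chow, Rbm28 was again the only member called on day 14, with 138, 140, 171 and 163 CPM in the day 14 libraries (0.87 ± 0.16; adjusted p = 0.0114). Of all genes 0.878% were called higher in that comparison, 0.302% lower and 1.18% in either direction. In 10 members every day 14 library lay above every chow library (5.28% of all genes) and in 2 below (4.65%), and 23 changes were positive (48.7% of all genes). The call was lost without day 14 replicate 3 and without day 0 replicate 4 and day 2 replicate 1 together, and the count was 3 without day 0 replicate 1. DESeq2 called 4 members. Nolc1 stayed above chow in every library on day 14, at 46.5 ± 1.03 CPM and 33.1 ± 3.48 CPM on day 0, without a call (0.50 ± 0.13; adjusted p = 0.0679). The comparisons of days 2, 4, 6 and 14 with day 0 share the same 4 chow libraries, and those of day 4 with other days share the day 4 libraries.

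Cell cycle genes were set beside the members library by library. Of 42 listed 40 were higher (18% of all genes) and 0 lower (17.3%) on day 4 against day 0. Their median log2 change was 2.98. The mean of the cell cycle genes (log2, above chow) was 0.51 in day 4 replicate 1, while day 4 replicates 2, 3 and 4 had 2.71 to 2.95. The mean of the 34 ribosome biogenesis genes was 0.35 above chow in day 4 replicate 1, beside 0.33, 0.36 and 0.51 in day 4 replicates 2, 3 and 4. Replicate 1 was the low one of that day for cell cycle genes and stood among the others for the members' mean. Single members differed: that library had the lowest level of the day for 11 members, among them Rbm28, Rrp12 and Nhp2. It had the highest for 6 members, among them Dkc1, Nop10, Nop14 and Gnl3. Day 2 replicate 4 had the highest members' mean of all 20 libraries, 0.56, beside 0.32 for cell cycle genes. In day 6 replicate 4 the cell cycle genes averaged 2.34 and the members 0.19. Without day 4 replicate 1 the members' count on day 4 was 20, of which 19 were higher.

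**Figure D4:**
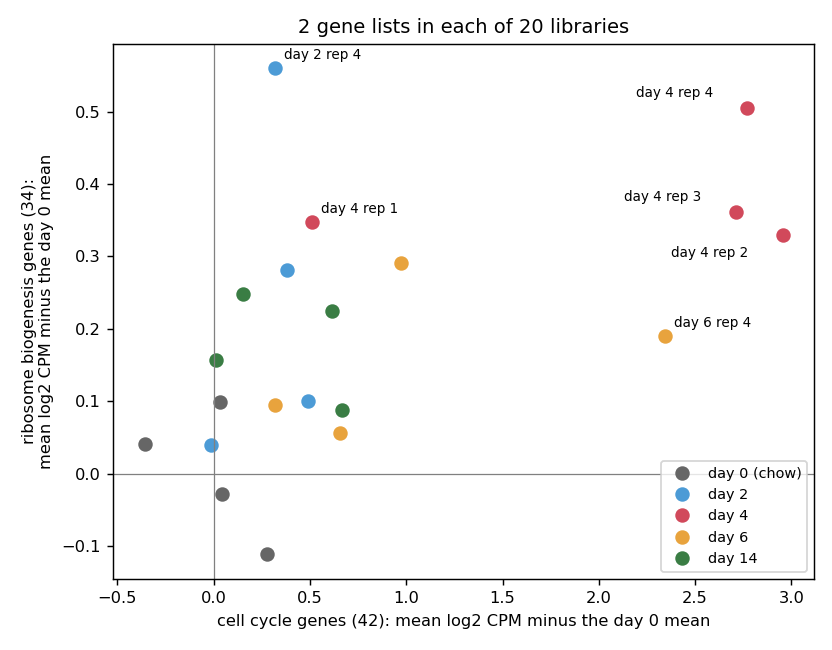
Mean log2 CPM minus the day 0 mean for the 34 ribosome biogenesis genes (vertical axis) and for 42 cell cycle genes (horizontal axis), 1 point per library, coloured by day. Day 4 replicate 1 and day 2 replicate 4 lie high on the vertical axis with cell cycle means of 0.51 and 0.32, and day 6 replicate 4 lies far right with a members' mean of 0.19.

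Markers of other cell types were read in the same libraries. On day 4 against day 0, 18% of all genes were called higher and 17.3% lower, the shares to set beside each marker count. All 11 mesothelial markers measured were called lower on day 4 than on day 0, and they summed to 84.3 to 251 CPM in the day 4 libraries, against 412 to 539 CPM in the day 0 libraries, without overlap. Of 10 endothelial markers 6 were called higher and 0 lower, with overlapping sums of 1243 to 2277 CPM in the day 4 libraries and 1014 to 1331 CPM in the day 0 libraries. None of these 21 genes was at 0 reads in either group. Of 12 progenitor or fibroblast markers 2 were higher and 4 lower, with overlapping sums of 3709 to 6463 CPM on day 4 and 3718 to 4936 CPM on day 0. Of 12 adipocyte markers 1 was higher and 3 lower, and of 8 smooth muscle or pericyte markers 2 were higher and 0 lower. Of 11 T and NK cell markers tested 0 were higher and 2 lower. The sums of 12 macrophage markers overlapped, at 903 to 1657 CPM on day 4 and 1435 to 1686 CPM on day 0. The part of these cell types in the members' changes was not tested.

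The wider pathway was read from a list of 124 other ribosome biogenesis genes, 122 of which were tested. On day 4 against day 0, 37 were called higher (30.3%) and 5 lower (4.1%), beside 18% and 17.3% of all genes. The median log2 change was 0.19. With scaling by library size only the split was 13 higher and 10 lower. The total of 42 was 13 without day 4 replicate 4, 25 without day 0 replicate 4 and 26 without day 0 replicate 3. Polr1d, a subunit shared by polymerases I and III, averaged 87.2 ± 6.69 CPM on day 4 and 58.2 ± 4.56 CPM on day 0 (0.59 ± 0.09; adjusted p = 9.77e-04). Ccdc86, a nucleolar protein gene, averaged 17.04 ± 2.07 CPM on day 4 and 7.13 ± 0.815 CPM on day 0 (1.25 ± 0.22; adjusted p = 0.00120). Both had risen on day 2 as well, by 0.44 ± 0.10 and 0.99 ± 0.22, among 9 of the 122 called on that day (4.39% of all genes). The most abundant genes of the list were not called on day 4: the kinase gene Riok3 (0.22 ± 0.11), Nol6 (-0.12 ± 0.17), the polymerase I factor gene Ubtf (-0.05 ± 0.07) and Rrp1 (0.12 ± 0.06). By step, 17 of 48 small subunit factors and 16 of 53 large subunit factors were higher and 2 of each were lower. Among the rest 3 of 12 polymerase I factors were higher and 1 lower, and 1 of 9 snoRNP assembly factors was higher. The RNA exosome, which trims the precursor RNAs, had 1 of 13 genes called, Exosc10 (0.23 ± 0.09; adjusted p = 0.0458), a call lost without day 0 replicate 2, 3 or 4 or day 4 replicate 2 or 4, and with 2 genes called without day 4 replicate 1.

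Polymerase III makes the small ribosomal RNA of the large subunit and transfer RNAs. Of its 10 subunit genes 3 were called higher and 1 lower on day 4, beside 18% higher and 17.3% lower of all genes. The alternative subunits encoded by Polr3g and Polr3gl went in opposite directions. Polr3g averaged 14.1 ± 2.40 CPM on day 4 and 5.50 ± 0.834 CPM on day 0 (1.37 ± 0.25; edgeR quasi-likelihood test, adjusted p = 0.00135). Polr3gl averaged 19.98 ± 3.13 CPM on day 4 and 41.0 ± 10.9 CPM on day 0 (-1.02 ± 0.25; adjusted p = 0.00547). Among the most abundant subunits Polr3b rose (0.21 ± 0.08), and Polr3c (0.26 ± 0.11) and Polr3e (-0.00 ± 0.10) were not called. Maf1, the repressor of polymerase III, fell (-0.51 ± 0.10; adjusted p = 0.00194).

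Myc RNA itself was not called on day 4. It measured 11.4, 14.3, 16.6 and 17.3 CPM in the day 4 libraries, against 11.4, 17.8, 15.2 and 14.0 CPM in the day 0 libraries, with overlapping groups (0.03 ± 0.26; adjusted p = 0.945). Mycn, at 1.53 to 4.25 CPM in the day 4 libraries and 0.349 to 1.84 CPM in the day 0 libraries, was not called (1.53 ± 0.61; adjusted p = 0.0585). Mycl, the remaining MYC family gene, fell. It measured 2.42, 4.83, 1.55 and 2.16 CPM in the day 4 libraries, against 9.77, 39.9, 57.5 and 12.4 CPM in the day 0 libraries (-3.52 ± 0.85; adjusted p = 0.00501). Its groups did not overlap, and its chow libraries were far apart. Myc, Mycn and Mycl were picked after their values were seen. Of the 13 genes of the MYC network 2 were higher (18% of all genes) and 5 lower (17.3%). Mxi1, an antagonist of MYC, averaged 15.2 ± 2.76 CPM on day 4 and 22.98 ± 3.88 CPM on day 0 (-0.62 ± 0.16; adjusted p = 0.00860), and it had fallen on day 2 (-0.69 ± 0.16; adjusted p = 0.0269). Mxd3, an antagonist known from dividing cells, measured 0.763 CPM in day 4 replicate 1, 9.77 to 13.03 CPM in the other 3 day 4 libraries and 0.116 to 0.810 CPM in the day 0 libraries. It rose (4.12 ± 0.75; adjusted p = 0.00135), although day 4 replicate 1 lay within the chow range. Mlxip (-0.47 ± 0.12), a partner of the MAX-like protein MLX, and Mga (-0.28 ± 0.09), a MAX partner, fell, and the antagonist gene Mxd4 (0.13 ± 0.10) and Mlxipl (-0.16 ± 0.22) were not called.

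Genes of enzymes and factors that MYC is known to activate were higher for 8 of 16 and lower for 1. The shares of all genes were 18% and 17.3%. Srm, spermidine synthase, averaged 47.4 ± 7.62 CPM on day 4 and 26.3 ± 2.28 CPM on day 0 (0.85 ± 0.13; adjusted p = 9.25e-04). Nme1, a nucleoside diphosphate kinase, averaged 23.3 ± 4.10 CPM on day 4 and 12.95 ± 2.18 CPM on day 0 (0.84 ± 0.18; adjusted p = 0.00256). The initiation factor genes Eif4a1 (0.71 ± 0.17) and Eif4g1 (0.40 ± 0.10) rose, while the purine synthesis gene Paics (0.06 ± 0.09) and Odc1, of polyamine synthesis (0.18 ± 0.16), were not called. The list total of 9 was 5 without day 4 replicate 4.

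Transport between nucleus and cytoplasm is the route by which ribosomal proteins enter and subunits leave the nucleus. Of its 13 genes tested 7 were called higher on day 4 (18% of all genes) and 0 lower (17.3%). The importin gene Kpna2 averaged 55.1 ± 14.5 CPM on day 4 and 16.3 ± 1.47 CPM on day 0 (1.75 ± 0.23; adjusted p = 6.54e-04). Rcc1 (1.39 ± 0.22), the exchange factor of the transport GTPase Ran, Ran itself (0.78 ± 0.20), Kpnb1 (0.61 ± 0.14) and Ipo9 (0.28 ± 0.09) rose, and Tnpo1 was not called (-0.01 ± 0.10). On day 14 against day 4, 6 of the 13 were lower (4.78% of all genes), among them Kpna2 (-1.17 ± 0.23) and Ran (-0.69 ± 0.20).

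Impaired ribosome assembly is known to activate p53, so its regulators and targets were listed with the members. Of the 11 tested 5 were higher (18% of all genes) and 2 lower (17.3%) on day 4. Ccng1, a p53 target, averaged 211 ± 29.7 CPM on day 4 and 139 ± 12.6 CPM on day 0 (0.61 ± 0.14; adjusted p = 0.00380). Cdkn1a, the cell cycle inhibitor p21, averaged 145 ± 58.4 CPM on day 4 and 53.7 ± 29.4 CPM on day 0 (1.45 ± 0.52; adjusted p = 0.0369). Zmat3 rose (0.38 ± 0.08), and the p53 inhibitor gene Mdm4 (-0.51 ± 0.14) and Sesn1 (-0.49 ± 0.13) fell.

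**Figure D5:**
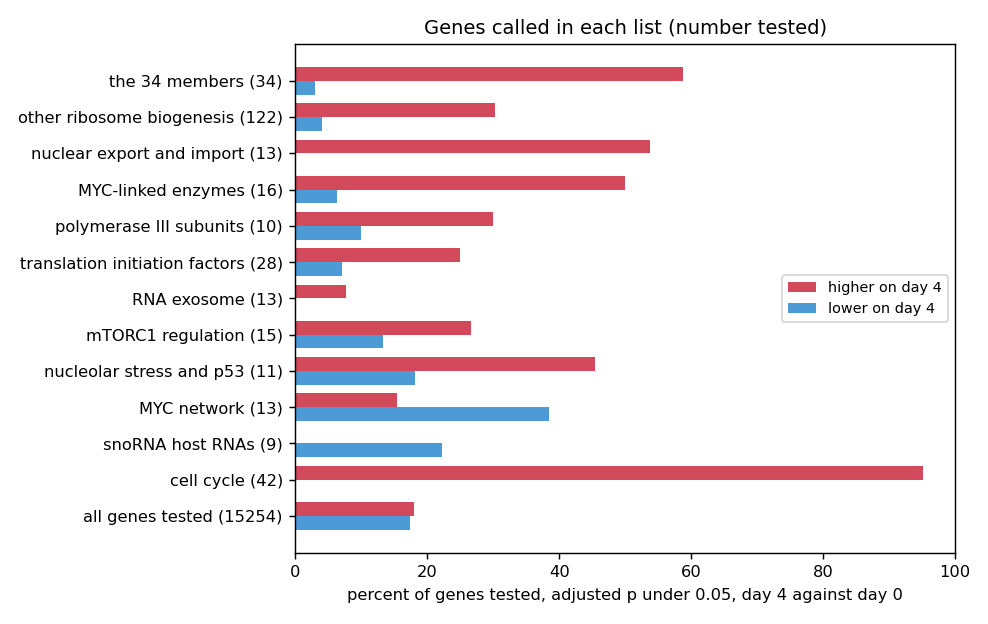
Percent of the genes tested in each list (number in brackets) that were called higher (red) or lower (blue) on day 4 against day 0, with all 15254 genes tested at the bottom. The members had 20 of 34 higher and 1 lower, and the MYC network is a list with more genes lower than higher.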

How the data were processed

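Raw read counts per Ensembl gene, not normalized, were deposited by the authors for all 20 libraries. R 3.0, limma, featureCounts, STAR and CASAVA are listed, with no roles, in the submitters' processing notes. The genome build, annotation and strand setting were not given in the sources used here. Libraries were prepared with a TruSeq RNA kit, per the labels' protocols, 4 for each of 5 groups.

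Counts were filtered with filterByExpr (minimum count 10, minimum total 15), scaled by TMM and fitted in 1 edgeR 4.0.16 quasi-likelihood model of all 20 libraries (R 4.3.3, group the only term, common biological coefficient of variation 0.209, 15 residual degrees of freedom). The steps were tested on simulated data. Benjamini-Hochberg adjustment ran across every gene tested. SEs come from the F statistic. Library means of a list are means of log2 CPM (prior count 2). Alternatives were RLE or library size scaling, other filters, DESeq2 1.42.0, limma-voom (limma 3.58.1), fits of fewer groups or libraries, the replicate or library number as a term, and other thresholds. Promoter windows are RefSeq's and exon lengths GENCODE's, both on GRCm38. Promoter windows were missing for 5 members.

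The members and lists were chosen with earlier results of these data known. All 34 members are named. Genes named from a pathway list are among its 4 most abundant genes or its 2 with the lowest p across the 5 groups, and any other is said to be picked later. Library totals set the precision of the lowest genes.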

Additional observations from a re-analysis of the deposited data

Results flagged for a closer look

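In groups of 4 libraries, 8 values stood apart by Dixon's criterion among 185 groups examined, where chance alone marks about 1 in 20. Day 2 replicate 4 was the high library for Rrp12 (24.3 CPM, the others 12.7 to 13.5), Nop14 (36.4 CPM, the others 24.1 to 24.8), Nop2 (36.8 CPM, the others 23.5 to 24.8) and Wdr3 (24.7 CPM, the others 19.96 to 20.5). Day 4 replicate 4 was high for Ddx21 (97.0 CPM, the others 84.5 to 85.4). Day 6 replicate 4 was high for Tcof1 (35.6 CPM, the others 27.6 to 28.6). Day 0 replicate 4 was high for Wdr3 (23.3 CPM, the others 21.8 to 21.9). The mean of the cell cycle genes was low in day 4 replicate 1 (0.51 above chow on the log2 scale, the others 2.71 to 2.95).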

How the results depend on the processing

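The 21 members called on day 4 against day 0 included 13 that kept the call in all 8 fits without 1 library and 11 that kept it in every alternative run. Leaving out 1 library gave 13 to 20 members on day 4 against day 0, 1 to 13 on day 2, 0 to 5 on day 6, 0 to 3 on day 14, 4 to 16 for any difference among the 5 groups, 0 to 4 for day 4 against day 2, 0 to 2 for day 6 against day 4 and 0 to 6 for day 14 against day 4.

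Counts that moved by over 1.5 times are grouped by setting, and some smaller moves are given beside them. With library size only as scaling, 14 were called on day 4, 2 each on days 2, 6 and 14 against day 0, 1 for day 14 against day 4 and 8 for any difference. This scaling moved the median of all genes by -0.14, -0.13, -0.14 and -0.10 (log2) on days 2, 4, 6 and 14 against day 0. The members' median was then 0.08, 0.24, 0.00 and 0.08 on these days. DESeq2 called 8, 4 and 4 on days 2, 6 and 14 against day 0. Limma-voom called 2 in each of these 3 and 2 for day 14 against day 4. With quality weights limma-voom called 6, 6 and 5 on days 2, 6 and 14 against day 0, 11 for day 4 against day 2, 12 for day 6 against day 4, 15 for day 14 against day 4 and 21 for any difference. With no filter 0 were called for day 14 against day 4. Fits of only the groups compared called 1 on day 2, 0 on day 6 and 3 for day 14 against day 4. At an adjusted p under 0.01 the counts were 1 on day 2, 12 on day 4, 0 on days 6 and 14, 0 for day 14 against day 4 and 2 for any difference. With an absolute log2 change above 0.5 as well as the call, 12 remained on day 4 and 1 for day 14 against day 4. Without day 0 replicate 4 and day 2 replicate 1, a pair chosen after seeing the data, 0 were called on days 2, 6 and 14, 2 for day 14 against day 4 and 3 for any difference. Without day 4 replicate 1 and day 6 replicate 4, also chosen after seeing the data, 2 were called on day 14, 0 on day 6, 2 for day 4 against day 2 and 8 for day 6 against day 4. Without day 0 replicate 4 and day 2 replicate 4 it was 0 on day 2. The median for day 4 against day 2 was 0.27 without day 2 replicate 4. The cause was not tested.

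Small day 4 changes of members without a call turned sign. Pes1 was -0.00055 with RLE scaling, -0.099 with library size only, -0.022 with the stricter filter and -0.0081 with only the groups compared. With library size only Npm1 was -0.070, Gar1 -0.039, Nop14 -0.060 and Wdr3 -0.048. Nop10 was 0.0060 with limma-voom, and Nop14 was -0.0039 with quality weights. Without 1 library the ranges were -0.12 to 0.020 for Nop10, -0.034 to 0.10 for Nop14 and -0.034 to 0.066 for Pes1. They were -0.026 to 0.093 for Npm1 and -0.025 to 0.15 for Gar1. Without day 0 replicate 4 and day 2 replicate 1 together, Nop14 was -0.011 and Pes1 -0.029. Nop14 was -0.033 without day 4 replicate 1 and day 6 replicate 4 together.

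The labels do not say whether equal replicate numbers pair the libraries. Same-numbered libraries correlated at -0.185 to 0.516 in their deviations, over 0.1 in 12 of 40 pairs. Libraries of different numbers correlated at -0.692 to 0.376, and 10 of 20 libraries correlated best with their own number. These values do not settle whether same-numbered libraries share a block. With the replicate number as a block the counts were 5, 21, 1 and 1 on days 2, 4, 6 and 14 against day 0, 6 for day 14 against day 4 and 14 for any difference. With the library number as a covariate 1 was called on day 2.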

Other observations

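Of 28 initiation factor genes 7 were higher (18% of all genes) and 2 lower (17.3%) on day 4 than on chow. Their median log2 change was 0.07. Eif5a, a factor of initiation and elongation, averaged 446 ± 37.5 CPM on day 4 and 333 ± 41.8 CPM on day 0 (0.42 ± 0.11; edgeR quasi-likelihood test, adjusted p = 0.00887), and Eif2b2, of the exchange factor of eIF2, rose by 0.44 ± 0.09. Eif4b fell (-0.45 ± 0.10; adjusted p = 0.00290), as it did on day 6 (-0.37 ± 0.10; adjusted p = 0.0442). Eif3a (0.04 ± 0.09), Eif5 (-0.06 ± 0.13) and Eif1 (-0.06 ± 0.13) were not called.

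Of 15 genes of mTORC1 regulation 4 were higher and 2 lower on day 4, beside 18% higher and 17.3% lower of all genes. Lamtor1, of the complex that holds mTORC1 at the lysosome, averaged 170.1 ± 9.88 CPM on day 4 and 104 ± 22.99 CPM on day 0 (0.71 ± 0.15; adjusted p = 0.00280). Eif4ebp1 (-0.31 ± 0.17), Deptor (0.08 ± 0.14) and Tsc2 (0.08 ± 0.07) were not called on day 4, and Deptor, an inhibitor of mTOR, was called higher on day 14 against chow (0.67 ± 0.14; adjusted p = 0.0289). Long RNAs that host snoRNAs had 0 of 9 higher and 2 lower on day 4, Snhg18 (-0.82 ± 0.17; adjusted p = 0.00212) and Snhg20 (-0.95 ± 0.21; adjusted p = 0.00337). Gas5, the most abundant of them, was not called (-0.13 ± 0.09).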
